A study of Homo sapiens with 2 samples.

Results

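The 8 genes EPOR, CLIC5, BIRC7, TCFL5, DSC2, DSC3, ARHGEF4 and CD27 are coding genes known as raised in leukemias that carry the ETV6/RUNX1 fusion, and their RNA levels were examined in REH and 697 cells. They were chosen by name, among 57773 gene IDs counted in each library. REH and 697 are established human B-ALL cell lines, each grown from 1 leukemia. REH is positive for ETV6/RUNX1 and has a deletion of its other ETV6 allele, whereas 697 has no ETV6/RUNX1. Both lines were kept in the same RPMI medium with serum, antibiotics and glutamine, without drug or knockdown. Total RNA was sequenced once per line, so there are 2 libraries and no replicates, and the fusion cannot be told apart from any other difference between the lines.

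ETV6/RUNX1 joins the N-terminal part of the ETS family repressor ETV6 to most of RUNX1, which binds DNA through its Runt domain and is needed for B-lineage development. Leukemias with this fusion have a recognisable coding signature. Part of it consists of genes best known outside the B lineage, such as the erythropoietin receptor EPOR, the desmosomal cadherins DSC2 and DSC3, and TCFL5, a basic helix-loop-helix transcription factor abundant in male germ cells. The other members are CD27, a receptor of the TNF family, BIRC7, an inhibitor of apoptosis also called livin, CLIC5, an intracellular chloride channel protein tied to the actin cytoskeleton, and ARHGEF4, a nucleotide exchange factor for small GTPases.

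In REH 45188375 reads were counted in genes and in 697 there were 41097497. Library totals were scaled (TMM), and levels are given as CPM, the reads of a gene scaled to a common library total. Each gene has a log2 ratio, REH divided by 697, with 0.5 reads added on both sides. Its 95% interval covers counting error only, and no p-value can be given with 1 library per line. Tested genes are the 19145 that reached 10 reads in REH or in 697, and a gene was called higher in a line once its log2 ratio passed 2 in that direction. The 10 markers of B-cell precursors examined had at least 3941 reads each in 697, and in REH 9 of them had over 10 reads while VPREB1, a surrogate light chain gene, had 3.

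Of the 8 markers, 6 were higher in REH by a log2 ratio of at least 2 and 0 were higher in 697. The 6 were EPOR, CLIC5, BIRC7, DSC2, DSC3 and ARHGEF4. Among all tested genes 12.5% were higher in REH by this size and 8.15% were higher in 697, and among tested protein-coding genes 10.9% were higher in REH. TCFL5 was higher in REH by less than this size, and CD27 was about equal in the standard count. The median log2 ratio of the markers was 9.03, or 7.74 when the genes with 0 reads in 697 were set to their lower bound, against 0.05 over all tested genes. All 8 markers reached 10 reads, but 5 of them passed this filter through REH alone, and for these a high ratio follows in part from the filter. For 7 of the 8 the counting interval lay above 0, which was so for 40.1% of all tested genes. A pattern of at least 100 reads in REH with at most 10 in 697 was found for 5 of the markers and for 2.96% of all tested genes. This rule was not planned. The 5 markers are those that passed the filter through REH alone, so the pattern restates their ratios and adds no separate support.

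**Figure D1:**
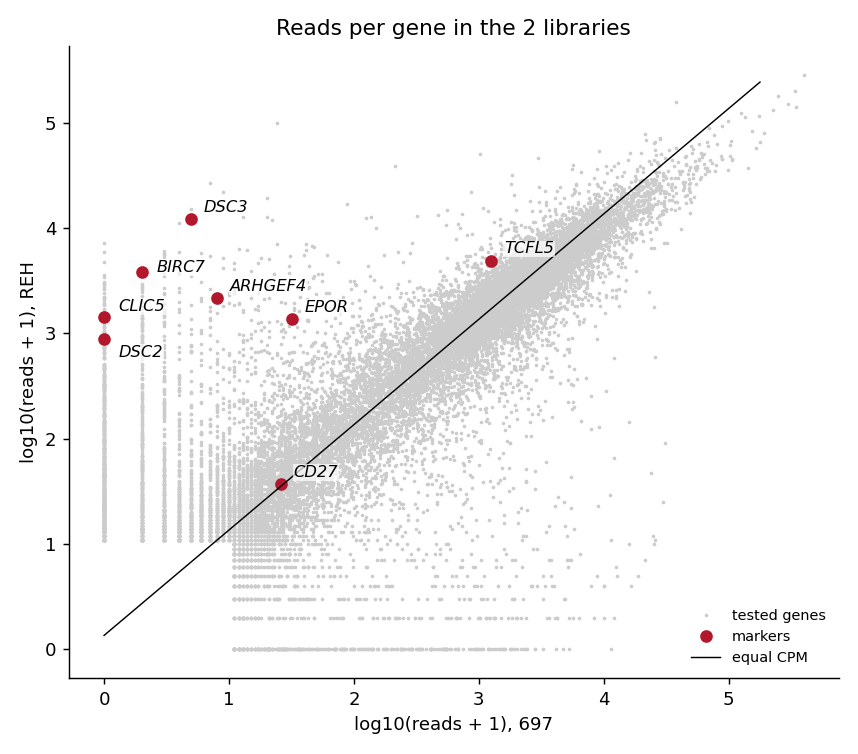
Reads per gene as log10(reads + 1) in 697 (horizontal) and REH (vertical), 1 grey point for each of the 19145 tested genes, red points for the 8 markers, and a line at equal CPM. CLIC5, DSC2, BIRC7, DSC3 and ARHGEF4 lie at the left edge with at most 7 reads in 697, EPOR stands above the main cloud, and CD27 lies on the line.

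The receptors were inspected first. EPOR (ENSG00000187266, chromosome 19, 11377207 to 11384342, minus strand, GENCODE 44 on GRCh38) encodes the receptor for erythropoietin, which signals through JAK2 and STAT5 in red cell precursors. It had 1365 reads in REH and 31 reads in 697, or 27.2 CPM (95% Wilson interval 25.8 to 28.6) and 0.839 CPM (0.591 to 1.19). EPOR was 32.4-fold higher in REH, with a log2 ratio of 4.99 (interval 4.50 to 5.58), and was low in 697 rather than missing. Red cell genes did not accompany it. Of 10 erythroid markers, HBA1, HBB, HBG1 and 2 others had 0 reads in REH, 8 had fewer than 10 reads there, and the 10 together reached 1.17 CPM in REH and 2.27 CPM in 697.

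CD27 (ENSG00000139193, chromosome 12, 6444955 to 6451718, plus strand) encodes a costimulatory receptor of the TNF family that binds CD70 and marks memory B cells and many T cells. It had 36 reads in REH and 25 in 697, or 0.716 CPM (0.517 to 0.991) and 0.677 CPM (0.458 to 0.999). The log2 ratio was 0.07 with an interval from -0.69 to 0.88, and the interval of the fold ran from 0.618 to 1.84, so no direction could be resolved at this depth. This low count depends on how reads were assigned. Annotated exons of other genes cover 44.7% of the exon length of CD27, of which 562 bases are shared with CD27-AS1, a lncRNA on the opposite strand, and 29 bases with TAPBPL on the same strand. Reads in such stretches were set aside as ambiguous when strands were pooled.

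The columns that count each strand separately keep the reads shared with CD27-AS1, while those shared with TAPBPL on the same strand stay ambiguous. In the strand columns CD27 had 113 sense and 180 antisense reads in REH, and 52 and 65 in 697. Summed, this came to 293 reads in REH and 117 in 697, which is 8.14 times and 4.68 times the pooled count. On the sums the log2 ratio was 0.89 with an interval of 0.58 to 1.21, higher in REH and below the size of 2. Reads were spread evenly over the strands in these libraries (50.1% sense in REH, 50.2% in 697), so the sums can hold reads of CD27-AS1 as well, which had 901 reads of its own in REH and 356 in 697. A difference between the lines was seen only where reads shared with CD27-AS1 were included.

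**Figure D2:**
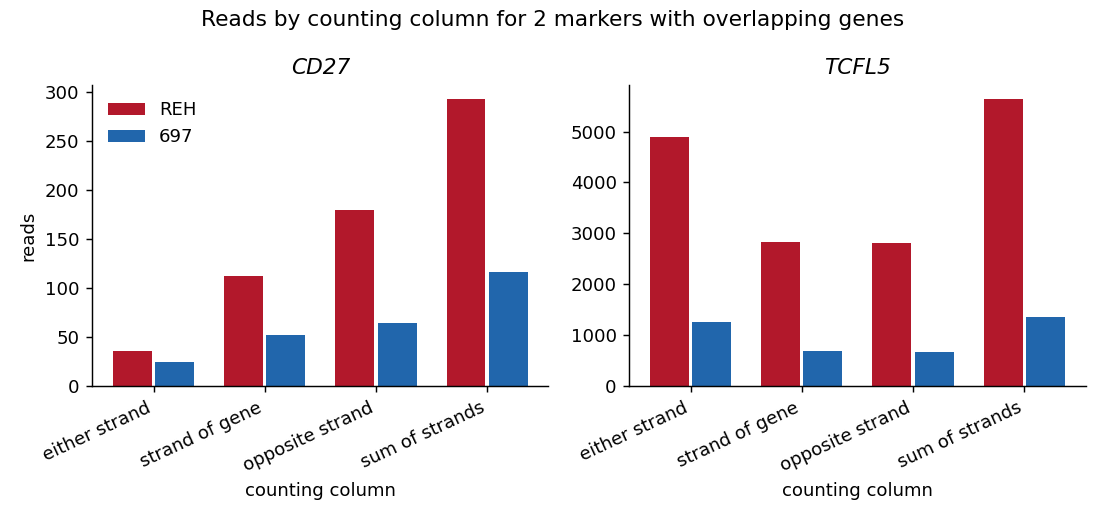
Bars give reads (linear axis from 0) of CD27 and TCFL5 in REH and 697 in the column of either strand, in the column of each strand and in the sum of the strand columns, with 1 library per line. For CD27 the sum reaches 293 reads in REH against 36 in the pooled column, whereas for TCFL5 the sum of 5633 is close to the 4884 of the pooled column.

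Next, the genes of cell survival and transcription were examined. BIRC7 (ENSG00000101197, chromosome 20, 63235883 to 63240495, plus strand) binds caspases and the pro-apoptotic factor SMAC and is usually restricted to a few tissues and tumors. It had 3851 reads in REH and 1 read in 697, or 76.6 CPM (74.2 to 79.1) and 0.0271 CPM (0.00478 to 0.153). BIRC7 was thus nearly silent in 697. The ratio was 2831-fold with an interval of 508-fold to 111830-fold, wide because a single read fixes the lower level. TCFL5 (ENSG00000101190, chromosome 20, 62841005 to 62861822, minus strand) behaved otherwise and was expressed in both lines. It had 4884 reads in REH and 1258 in 697, or 97.2 CPM (94.5 to 99.9) and 34.0 CPM (32.2 to 36.0). TCFL5 was 2.85-fold higher in REH, with a log2 ratio of 1.51 (1.42 to 1.60). At a threshold of 1, which it passed, 22.4% of all tested genes were higher in REH. On the opposite strand COL9A3, a collagen gene with 1035 reads in REH and 166 in 697, and the pseudogene DPH3P1 cover 11.2% of its exons, and with both strand columns summed the TCFL5 counts were 5633 and 1362 and the log2 ratio 1.62.

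Among the adhesion genes, DSC3 (ENSG00000134762, chromosome 18, 30989365 to 31042815, minus strand) was the most abundant marker by reads. Desmocollins are the cadherins that join neighbouring epithelial cells at desmosomes together with the desmogleins. DSC3 had 12101 reads in REH and 4 in 697, or 241 CPM (236 to 245) and 0.108 CPM (0.0421 to 0.278), a ratio of 2224-fold (868-fold to 8162-fold). DSC2 (ENSG00000134755, chromosome 18, 31058840 to 31102522, minus strand), the more widely expressed desmocollin, had 879 reads in REH, or 17.5 CPM (16.4 to 18.7). With 0 reads in 697, where 3 reads correspond to 0.0812 CPM, DSC2 was at least 215-fold higher in REH. Both desmocollins were therefore found in REH and near absent from 697. The genes lie 16.0 kb apart in the same orientation, and their levels in REH differed, with 31.3 CPM per kb of exon for DSC3 (30.7 to 31.8) and 1.40 CPM per kb for DSC2 (1.31 to 1.49).

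The remaining members act at the cytoskeleton. CLIC5 (ENSG00000112782, chromosome 6, 45880827 to 46080348, minus strand) had 1430 reads in REH, or 28.4 CPM (27.0 to 30.0), and 0 reads in 697. It was at least 350.4-fold higher in REH. ARHGEF4 (ENSG00000136002, chromosome 2, 130836914 to 131047263, plus strand), also called Asef, activates Rac and Cdc42 and is stimulated by the tumor suppressor APC. It had 2170 reads in REH and 7 in 697, or 43.2 CPM (41.4 to 45.0) and 0.189 CPM (0.0918 to 0.391), with a log2 ratio of 7.73 (6.79 to 9.15). Its reads were far above the count in 697, although 26.9% of its exon length in GENCODE 44 is also part of SMIM39, a gene without an ID in the count tables. ARHGEF4-AS1 overlaps 79 bases on the opposite strand and had 14 reads in REH and 1 in 697.

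**Figure D3:**
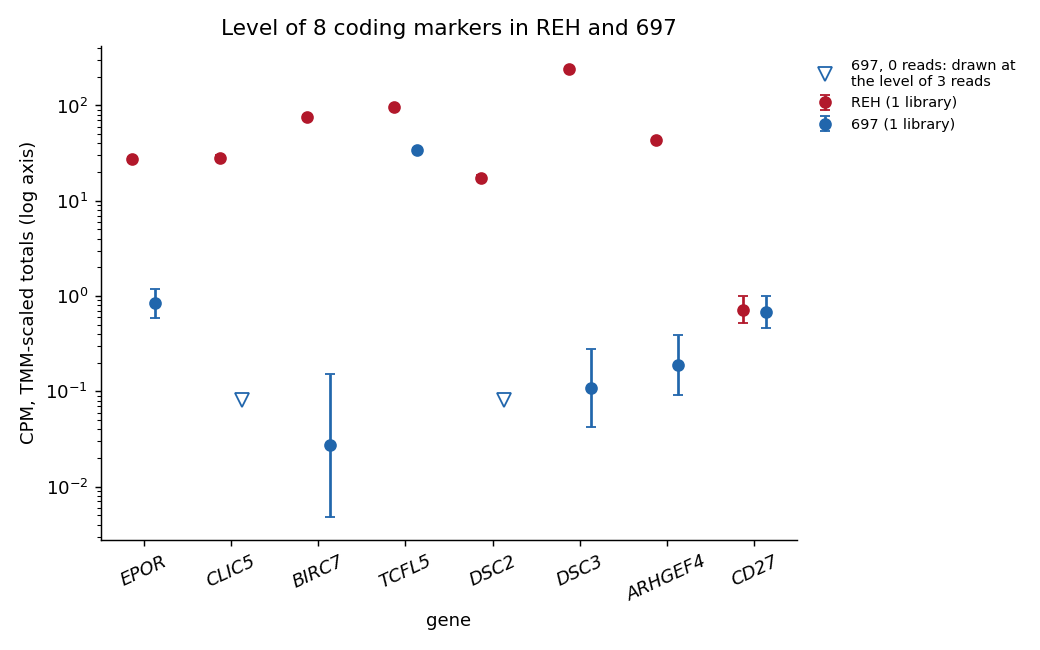
CPM on TMM-scaled totals (log axis) of each marker in REH (red) and 697 (blue), 1 library each, with bars for the 95% Wilson interval of the count and open triangles at the level of 3 reads for genes with 0 reads in 697. The REH points run from 0.716 CPM for CD27 to 241 CPM for DSC3, and only for CD27 do the intervals of the lines overlap.

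Levels between genes were compared per kb of exon, using the summed exon length of all GENCODE 44 isoforms, which lowers the value of a gene whose cells use a short isoform. In REH the order was BIRC7 (49.4 CPM per kb), DSC3 (31.3), TCFL5 (27.0), EPOR (8.83), ARHGEF4 (4.28), CLIC5 (2.73), DSC2 (1.40) and CD27 (0.542). The counting intervals of neighbours in this order did not overlap, but the spread between cultures is not known. The last place of CD27 holds for the pooled column only. With the strand columns summed, CD27 reached 4.13 CPM per kb in REH (3.69 to 4.64), above CLIC5 (2.56) and DSC2 (1.31) and overlapping ARHGEF4 (4.04, 3.88 to 4.22), and this sum can include reads of CD27-AS1. On the sums DSC3 (29.3) and TCFL5 (29.1) overlapped as well. BIRC7 lay above 96.0% of tested protein-coding genes in REH, DSC3 above 91.8%, TCFL5 above 89.8% and EPOR above 64.5%. CLIC5 lay above 37.5% and DSC2 above 28.2%. High ratios were therefore found for genes of high and of low level alike. In 697 TCFL5 led with 9.45 CPM per kb, followed by CD27 (0.512), EPOR (0.273), ARHGEF4 (0.0188), BIRC7 (0.0175) and DSC3 (0.0141), and the intervals of the last 3 overlapped. Those of CD27 (0.347 to 0.756) and EPOR (0.192 to 0.387) overlapped too, while on the sums CD27 was at 2.23 CPM per kb in 697 and EPOR at 0.253. By ratio, CLIC5 ranked 31, DSC3 34, BIRC7 36, DSC2 66, ARHGEF4 298, EPOR 882, TCFL5 3076 and CD27 9398 of the 19145 genes, with the ranks of genes near 0 reads in 697 set by the reads added.

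Reads that match several places were not counted, so exact matches of the markers to other annotated transcripts were searched. Of the 50-base stretches of the transcripts of EPOR, CLIC5, BIRC7 and CD27, 0% occurred in transcripts of genes elsewhere. The share was 0.281% for TCFL5, 0.446% for DSC2, 0.707% for ARHGEF4 and 2.03% for DSC3. Inexact copies and copies outside annotated transcripts were not searched. For the markers with over 100 strand-assigned reads in REH other than CD27, the strand of the gene held between 48.9% (ARHGEF4) and 51.5% (CLIC5) of them. In CD27 it held 38.6% (95% Wilson interval 33.2% to 44.3%) in REH and 44.4% (35.8% to 53.5%) in 697.

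Position in the genome was considered next, since the markers were not chosen for it. DSC2 and DSC3 are neighbours on chromosome 18, and TCFL5 and BIRC7 lie 374 kb apart on chromosome 20. The 5 tested protein-coding genes between TCFL5 and BIRC7 were DIDO1, GID8, SLC17A9, BHLHE23 and YTHDF1, with log2 ratios from -0.44 to 1.34, and 0 of them passed a size of 2. The stretch between these markers did not differ as a block.

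Several direct neighbours were higher in REH. ENPP4, which encodes a membrane ectoenzyme beside CLIC5, had 1401 reads in REH against 1 in 697, a log2 ratio of 9.42 (7.53 to 15.31). It starts 170 bases from the most upstream RefSeq start of CLIC5, on the opposite strand. NKAIN4, beyond the end of BIRC7 by 0.289 kb and in the opposite orientation, had 7018 reads in REH against 40 in 697 (log2 ratio 6.99, 6.56 to 7.50). These counts carry no strand, so reads past the end of either gene cannot be assigned to it. DSC1, next to DSC2, had 13 reads in REH and 0 in 697. LTBR, a TNF receptor family gene 53.4 kb from CD27, had 29 reads in REH against 3 in 697 (log2 ratio 2.63, 1.14 to 5.19).

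The other nearest neighbours had smaller ratios, the reverse one, or a direction that depended on the count column. ODAD3 near EPOR had 16 reads in REH and 0 in 697 in the pooled column, but its direction turned with the strand columns summed, where REH stood at 6.12 CPM against 7.27 CPM in 697 (log2 ratio -0.25, -0.48 to -0.02). RUNX2, on the far side of CLIC5, had 81 reads in REH against 139 in 697 (log2 ratio -1.22, -1.64 to -0.82). Log2 ratios were 1.00 for SWSAP1 beside EPOR, 0.34 for YTHDF1 beside BIRC7, -0.32 for OGFR and 0.17 for DIDO1 on the sides of TCFL5, -0.47 for PTPN18 and 0.22 for FAM168B on the sides of ARHGEF4, and 0.12 for VAMP1 beside CD27. CDH2, the nearest tested coding gene below DSC3 at a distance of 2811 kb, encodes N-cadherin and had 1 read in REH and 1963 in 697 (log2 ratio -10.80, -16.69 to -8.90). Genes overlapping the remaining markers had few reads, with 6 and 0 for RGL3 at EPOR, 5 and 0 for MIR3196 in BIRC7, 1 and 0 for DSCAS at DSC2, and 0 in both lines for RNU6-754P in CLIC5.

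**Figure D4:**
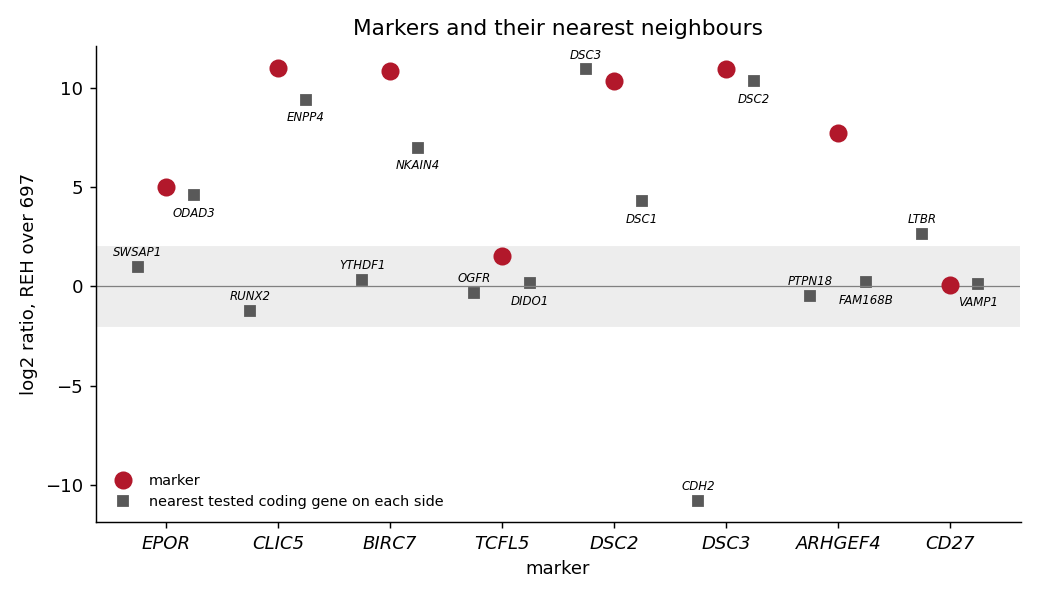
Log2 ratio of REH over 697 (vertical) for each marker (red circle) and the nearest tested protein-coding gene on each side (grey square, lower coordinate to the left), 1 library per line, with the band of ratios under 2 in size shaded. ENPP4 at 9.42 and NKAIN4 at 6.99 stand high beside CLIC5 and BIRC7, the neighbours of TCFL5 and ARHGEF4 lie in the band, CDH2 lies at -10.80, and the ODAD3 point, from the pooled column, moves to -0.25 with the strand columns summed.

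The promoters of the markers were read as well, because RUNX1 keeps its DNA-binding domain in the fusion. RefSeq windows from 250 bases before to 50 bases after a start were available for all 8 genes, 12 windows in total, and each matched the hg38 genome. RUNX motifs were searched as TGTGGT and TGCGGT on both strands. They occurred in 3 of the 12 windows, 1 each of CLIC5, ARHGEF4 and CD27, and in 19.6% of all 35114 promoter windows of that length, so the markers did not stand out. The parts of these windows before the start are shown with the motif in capitals, followed by that of EPOR, where GATAAG, a motif of GATA factors that drive red cell genes, is in capitals on the reverse strand. The windows are CLIC5 at chr6:46080349-46080598 (minus strand), ARHGEF4 at chr2:130963405-130963654 (plus), CD27 at chr12:6443642-6443891 (plus) and EPOR at chr19:11384315-11384564 (minus), all on GRCh38 and each written 5′ to 3′ along the strand of its gene.
CLIC5: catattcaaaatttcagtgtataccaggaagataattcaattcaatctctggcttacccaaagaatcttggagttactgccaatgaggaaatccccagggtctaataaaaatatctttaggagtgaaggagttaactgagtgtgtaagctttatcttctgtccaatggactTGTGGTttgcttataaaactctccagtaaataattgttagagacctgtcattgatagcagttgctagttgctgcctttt
ARHGEF4: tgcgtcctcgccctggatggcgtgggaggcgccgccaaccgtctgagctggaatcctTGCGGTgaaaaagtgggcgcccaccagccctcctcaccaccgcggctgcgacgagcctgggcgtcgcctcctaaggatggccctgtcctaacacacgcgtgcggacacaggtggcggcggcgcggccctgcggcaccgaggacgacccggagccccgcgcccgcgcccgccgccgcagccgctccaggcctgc
CD27: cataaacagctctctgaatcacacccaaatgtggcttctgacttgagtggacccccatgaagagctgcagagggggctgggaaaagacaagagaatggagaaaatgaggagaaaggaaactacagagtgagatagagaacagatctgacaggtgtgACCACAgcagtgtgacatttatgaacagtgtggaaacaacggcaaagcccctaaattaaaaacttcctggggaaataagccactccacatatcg
EPOR: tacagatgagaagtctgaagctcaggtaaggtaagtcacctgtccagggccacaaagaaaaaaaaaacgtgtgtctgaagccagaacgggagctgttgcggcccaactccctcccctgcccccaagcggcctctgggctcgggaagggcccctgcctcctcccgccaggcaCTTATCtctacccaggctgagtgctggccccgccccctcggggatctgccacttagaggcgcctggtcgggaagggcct

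Counted from -1 at the base before the start, the RUNX motif began at -79 in CLIC5, at -193 in ARHGEF4 and at -94 in CD27, where it lies on the opposite strand. The CLIC5 window is that of the start that GENCODE 44 also uses, and gene counts do not show which of the 3 RefSeq starts of CLIC5 was active. The CD27 window lies before a RefSeq start 1063 bases upstream of the GENCODE start. GATAAG began at -79 in EPOR, on the opposite strand, and occurred in 6.36% of all windows. CACGTG, an E-box, was found in BIRC7 and in a window of ARHGEF4 (7.26% of all windows), and CCGGAAG, an ETS motif, in BIRC7 (10.3%). None of these letters occurred in the windows of TCFL5, DSC2 and DSC3. The GC content of the windows ran from 39.7% in this CLIC5 window and 48.0% in CD27 to 81.3% in TCFL5, around a median of 58.7% over all windows.

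To see whether partners of the markers differed too, family and pathway lists were compared. In EPOR signalling 2 of 19 tested genes were higher in REH and 2 in 697, with a median log2 ratio of -0.10. The shares of all tested genes were 12.5% and 8.15%. TFR2, a transferrin receptor that associates with EPOR, had 296 reads in REH against 6 in 697, a log2 ratio of 5.07 (4.04 to 6.64), and PRLR had 30 and 1. SOCS2, a STAT5-induced feedback inhibitor, was higher in 697 (622 and 4820 reads, log2 ratio -3.40), as was the kinase LYN (577 and 2889, -2.77). JAK2, STAT5A, STAT5B and PIM1 were present in both lines, whereas SOCS3 had 8 reads in REH and 0 in 697 and was not tested. JAK2 had 1040 and 754 reads (log2 ratio 0.02), STAT5A 992 and 2537 (-1.80), STAT5B 4432 and 10588 (-1.70) and PIM1 4045 and 1033 (1.52), while EPO itself had 6 and 7 reads. GRB2 had the highest level per kb of the list in REH (30.3 CPM per kb, log2 ratio 0.57).

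The desmosome list also holds classical cadherins. In it 4 of 8 tested genes were higher in REH, against 12.5% of all tested genes. The 1 gene higher in 697, against 8.15% of all tested genes, was CDH2, a classical cadherin and not a desmosomal gene. The median log2 ratio was 2.77. The 4 genes higher in REH, PKP3, PERP, PKP1 and DSC1, had 0 reads in 697 and were tested through their REH reads alone. Only 2 of them, PKP3 and PERP, stayed in the count when at least 50 reads were required. The median was 1.45 with genes at 0 reads in a line set to their bound. PKP3, a plakophilin of the desmosomal plaque, had 376 reads in REH and 0 in 697. PERP, a membrane protein of desmosomes, had 109 and 0, PKP1 32 and 0, and DSC1 13 and 0. PKP4 was near equal in the lines (log2 ratio -0.26). JUP, plakoglobin, which links desmosomal cadherins to the plaque, was abundant in both lines at 38710 and 12129 reads (log2 ratio 1.23, 1.20 to 1.26), and the desmogleins were represented by DSG2 (5351 and 1789 reads, log2 ratio 1.14). A complete desmosome was not seen at the RNA level in REH, where DSP, the desmoplakin that anchors keratin, had 4 reads, PKP2 0, and DSG1 and DSG4 0. Epithelial markers were also low, with KRT5, KRT8, KRT14, KRT18 and GRHL2 at 0 reads in both lines, CLDN4 at 45 and 13 reads, and a summed level of 0.935 CPM in REH and 0.352 CPM in 697.

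Relatives of the other markers were examined in the same way. Of all tested genes 12.5% were higher in REH and 8.15% in 697. With few genes per list, no departure from these shares was tested. Of 8 tested genes around CLIC5, 0 were higher in REH and 1, PODXL, was higher in 697 (1269 and 4564 reads, log2 ratio -2.29). The family members CLIC1 (4987 and 8359 reads, -1.19) and CLIC4 (11282 and 8989, -0.12) were abundant in both lines, and CLIC3 and CLIC6 had at most 4 reads in REH. Among 11 tested genes of the IAP family and its partners, BIRC3 (36 reads in REH and 1 in 697) was higher in REH and NAIP (3 and 23) was higher in 697. The widely expressed members had log2 ratios of 0.57 for XIAP, -0.51 for BIRC5, -0.68 for BIRC2 and 0.41 for BIRC6, the last with the highest level per kb of the list in REH. Of 8 germ cell genes listed beside TCFL5, only MYBL1 (339 and 797 reads, log2 ratio -1.68) and SYCP3 (31 and 16, or 92 and 143 with the strand columns summed, where its log2 ratio was -1.07 in place of 0.49) had at least 10 reads, and SYCP1 and SPO11 had 0 in both lines.

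Among 28 tested exchange factors of the ARHGEF family, small GTPases and APC genes, 4 were higher in REH and 4 in 697. These counts stand beside 12.5% and 8.15% of all tested genes. ARHGEF3 (225 reads in REH and 0 in 697) and ARHGEF39 (1114 and 98, log2 ratio 3.06, or 1912 and 735 reads and 0.95 with the strand columns summed) were on the side of ARHGEF4, while ARHGEF10L (2 and 1163, -9.31) and ARHGEF11 (382 and 3844, -3.77) were on the other. SPATA13, the closest relative of ARHGEF4 and also called Asef2, had 1653 and 1854 reads (-0.61), and APC had 3296 and 2537 (-0.07). In the CD27 list 3 of 15 tested genes were higher in REH and 1 in 697, beside the same shares of all tested genes, with a median of -0.03. The ligand CD70 had 402 and 554 reads (log2 ratio -0.91) and the adaptors TRAF2 and TRAF5 log2 ratios of 0.06 and -1.35. CD40, another costimulatory receptor of B cells, was higher in REH (539 and 30 reads, 3.70, from 3.19 to 4.31), and TNFRSF8 was higher in 697 (11 and 243, -4.85). SIVA1, whose product binds the CD27 tail, had the highest level per kb in REH and a log2 ratio of -0.03.

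**Figure D5:**
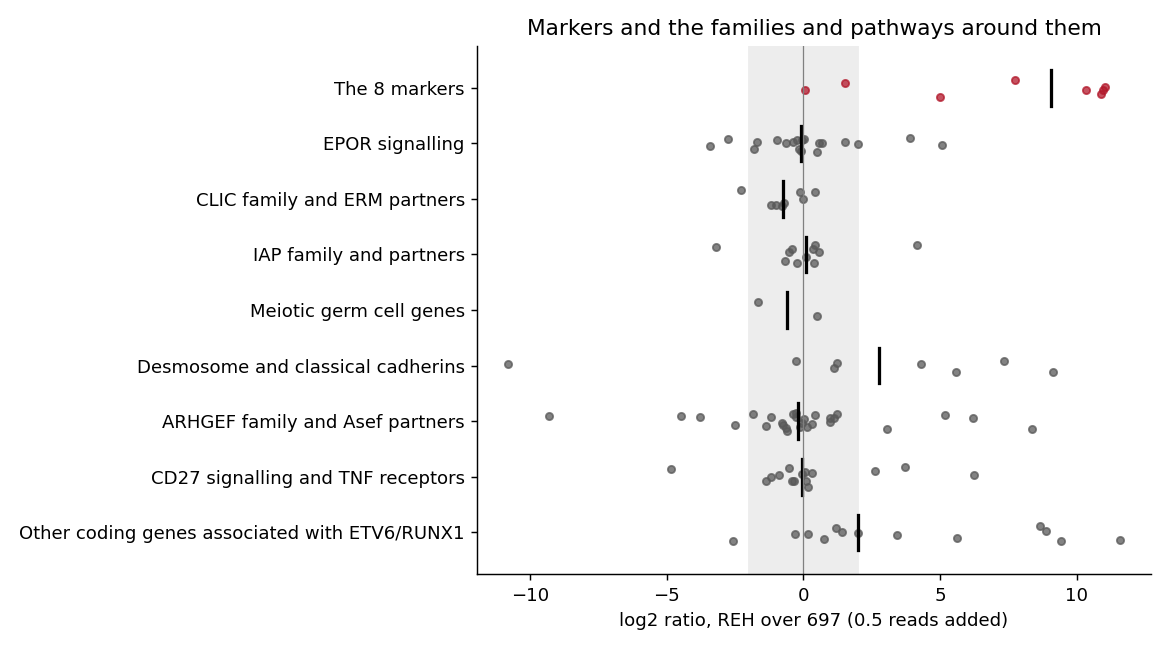
Log2 ratio of REH over 697 (0.5 reads added, 1 library per line) for the tested genes of each list, 1 point per gene with its median as a black bar and ratios under 2 in size shaded, points spread vertically for visibility. The median of the 8 markers is 9.03 and that of the desmosome list 2.77, while the medians for EPOR signalling and the CD27 list are -0.10 and -0.03.

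Finally, 13 further coding genes associated with ETV6/RUNX1 were set beside the markers. This list, too, was chosen with earlier results of these data known. Of these genes, 6 were higher in REH and 1 was higher in 697, against 12.5% and 8.15% of all tested genes. The counting interval lay above 0 for 11 of the 13, against 40.1% of all tested genes, and the median log2 ratio was 1.98. KCNN1, a potassium channel gene, had 11766 reads in REH against 21 in 697 (log2 ratio 8.65, 8.07 to 9.38), and NOVA1, a neuronal splicing factor, had 470 and 0. HAP1 had 9896 and 149 reads, CBFA2T3, a corepressor of the ETO family, had 26271 and 1801, and IGF2BP1 and PTPRK were the other genes past the size of 2. FARP1 was higher in 697 (2092 and 9164 reads, log2 ratio -2.57). RAG1 had the highest level per kb of this list in REH and a log2 ratio of 1.41. For RAG2 the direction depended on the count column, with a log2 ratio of -0.30 in the pooled column and 0.21 (0.17 to 0.24) with the strand columns summed.

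Markers of other blood cells were examined beside these results. Myeloid markers summed to 253 CPM in REH and 2.27 CPM in 697, almost wholly through MPO (12643 and 12 reads), while ELANE, S100A8 and S100A9 had 0 reads in both lines. T cell markers summed to 42.8 CPM in REH and 87.7 CPM in 697, with CD3D and CD2 at 0 in both. Most of their reads came from ZAP70 (1700 and 2273) and LCK (402 and 956). CD3E was higher in REH (45 and 0 reads) and CD8A was higher in 697 (0 and 10). Plasma cell markers summed to 529 CPM in REH and 874 CPM in 697. Of these, SDC1 was higher in REH (2677 and 3 reads), while JCHAIN (4 and 8797) and PRDM1 (log2 ratio -2.49) were higher in 697. The part of these in the results was not tested.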

How the data were processed

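RNA sequencing data from REH and 697 cells, 1 library each, were used, and groups follow the cell line in the labels. The authors deposited raw read counts per gene made with STAR, without normalization. The study's methods name hg38 and poly(A) purification, whereas the labels and the submitters' processing notes name ribodepletion, a stranded protocol and hg19. The annotation release is not given in the sources used here. Each table holds reads on either strand, which were used as the main values, and on each strand. Unmapped, multimapping, no-feature and ambiguous reads (29.3% of reads in REH, 30.3% in 697) were left out of totals.

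Symbols, exon lengths and positions came from GENCODE 44 on GRCh38 (51996 of 57773 IDs matched). Totals were scaled by TMM in edgeR 4.0.16 under R 4.3.3 (factors 1.11 for REH and 0.899 for 697). Intervals of ratios are exact Clopper-Pearson intervals of the share of reads from REH, and levels have Wilson intervals. Alternatives were DESeq2 1.42.0 size factors, totals without scaling, TMM factors from coding genes, minima of 1 and 50 reads, 5 reads added, a threshold of 1 and the strand columns. Promoter windows are from RefSeq (GRCh38.p14). Python 3.11.15 with scipy 1.17.1 was used. The computation was tested on simulated data.

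The markers and lists were chosen with earlier results of these data known, and the lists come from general knowledge. Named are the markers, the nearest tested coding genes and overlapping genes, the gene with the highest level per kb in REH of each list, and up to 4 genes per list past a log2 ratio of 2 with at least 100 reads, by the distance of the interval from 0. Further list genes were named after their values were seen, as parts of the pathways. A gene list used as a check of the labels and a list gene chosen by level are not reported here.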

Additional observations from a re-analysis of the deposited data

How the results depend on the processing

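All 8 markers kept a log2 ratio above 0 under the 7 alternatives for scaling, reads added and count column, with ranges of 4.75 to 5.30 for EPOR, 7.72 to 11.35 for CLIC5, 8.88 to 11.47 for BIRC7, 1.48 to 1.82 for TCFL5, 7.02 to 10.64 for DSC2, 9.94 to 13.16 for DSC3, 7.06 to 8.39 for ARHGEF4 and 0.01 to 1.04 for CD27. Without TMM scaling every ratio was higher by 0.31. The number of markers higher in REH stayed at 6, except for 7 at a threshold of 1. Their median was 7.04 with 5 reads added, the size for genes with 0 reads being set by that addition. Of all tested genes, 4293 were higher in REH and 3336 in 697 at a threshold of 1, 1477 and 1036 with a minimum of 50 reads, and 4410 were higher in 697 with a minimum of 1 read. The median of the desmosome list was 1.19 with a minimum of 1 read, 1.20 with a minimum of 50 reads and 1.32 with 5 reads added. PODXL did not pass the size of 2 without scaling, and BIRC3 and NAIP were not tested with a minimum of 50 reads. The sum of the strand columns was added after seeing the data. No paired analysis was possible because REH and 697 were sequenced once each, and no replicate could be left out.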
